A study of Mus musculus with 15 samples.

Results

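The Zfp genes are mouse genes for zinc finger proteins, named Zfp and a number. The 138 described here are the autosomal protein-coding genes with such a symbol that had at least 3 CpG rows, inside the gene or within 1 kb of it, with a methylation percentage in all 15 mice. A CpG row is 1 cytosine of a CG dinucleotide on 1 strand. The gene table names 360 autosomal Zfp genes, so 222 were not described, of which 65 had 1 or 2 such rows. The 138 genes held 1157 of the 113897 complete CpG rows, 3 to 66 rows each with a median of 7, and 10 of those rows lay within reach of more than 1 Zfp gene. By the same rule 7715 autosomal protein-coding genes had 3 rows. Just inside this limit, the 23 Zfp genes with exactly 3 rows had a median methylation of 3.31% (0% to 99.4%). Just outside it, the 29 with 2 rows had 51.2% (0% to 99.9%).

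The assay was RRBS (reduced representation bisulfite sequencing), which reads short CpG-rich fragments after bisulfite has converted unmethylated cytosines, in micro-dissected dentate gyrus of female C57BL/6JRj mice aged 7.5 months. Each of 3 groups had 5 mice: standard cages for 6 months (standard), an enriched environment for 6 months (enriched), and enrichment for 3 months followed by standard cages for 3 months (withdrawal). The deposited values are percentages with no read counts, so the depth behind each value is unknown and no counting interval was given. The number of CpG rows with a value ran from 297844 in standard mouse 1 to 444106 in withdrawal mouse 4. Dissected tissue holds several cell types, and a shift in their shares and a change within cells cannot be told apart. The tissue label could not be checked by expression. Of 12 cell type marker genes, 7 had values. The 2 dentate granule cell markers with values differed in the body. Prox1, a transcription factor, had 1.73% at its gene ends and 10.5% in its body (16 rows), and Dsp had 91.4% in its body (28 rows). The other bodies were those of Aqp4 (astrocyte, 30.2%), Mbp and Mog (oligodendrocyte, 9.09% and 93.5%), P2ry12 (microglia, 96.8%) and Pecam1 (endothelium, 7.10%).

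Many zinc finger proteins bind DNA through arrays of fingers held by cysteine and histidine, and in mammals a large share of them carry a KRAB domain. KRAB zinc finger proteins recruit the corepressor Trim28 and the histone methyltransferase Setdb1 to silence retroelements and to keep imprinted regions methylated. Their genes arose by repeated duplication and often lie in clusters. CpG methylation in mammals is usually low over CpG-rich gene starts and high elsewhere in the genome. Not every gene named Zfp is of the KRAB kind: Zfp42 is a pluripotency factor, and Zfp622 takes part in ribosome assembly.

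The gene start is where the members' methylation could be set beside sequence. The set of RefSeq promoter windows used here (build GRCm38.p6) lists a start and 300 bases around it for 108 of the 138 genes. The other genes are missing from that set. The following stretches are the 250 bases before a listed start, 5′ to 3′ on the gene's strand, with the CG of each measured CpG in capitals. They show the start with methylated rows (Zfp977), a start of like CpG number without methylation (Zfp945), and 3 more starts with low values and more CpGs.
Zfp977: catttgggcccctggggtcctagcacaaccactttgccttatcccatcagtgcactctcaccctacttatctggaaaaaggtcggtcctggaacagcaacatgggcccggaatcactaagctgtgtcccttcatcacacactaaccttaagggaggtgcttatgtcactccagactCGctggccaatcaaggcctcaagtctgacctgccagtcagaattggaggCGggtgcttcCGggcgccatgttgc
Zfp945: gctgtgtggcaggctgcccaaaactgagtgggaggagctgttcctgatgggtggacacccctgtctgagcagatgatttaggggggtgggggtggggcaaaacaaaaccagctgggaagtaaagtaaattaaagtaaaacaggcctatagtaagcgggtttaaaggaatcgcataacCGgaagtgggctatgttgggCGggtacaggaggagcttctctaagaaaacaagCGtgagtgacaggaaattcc
Zfp974: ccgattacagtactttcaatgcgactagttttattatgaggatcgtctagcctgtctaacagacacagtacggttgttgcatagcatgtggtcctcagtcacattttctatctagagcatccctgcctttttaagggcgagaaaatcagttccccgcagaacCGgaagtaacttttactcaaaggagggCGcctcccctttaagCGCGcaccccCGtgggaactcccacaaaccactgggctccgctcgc
Zfp933: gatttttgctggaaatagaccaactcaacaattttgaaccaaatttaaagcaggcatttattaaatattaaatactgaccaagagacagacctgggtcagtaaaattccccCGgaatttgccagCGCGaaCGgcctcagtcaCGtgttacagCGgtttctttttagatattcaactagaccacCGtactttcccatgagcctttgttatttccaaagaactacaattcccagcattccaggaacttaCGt
Zfp667: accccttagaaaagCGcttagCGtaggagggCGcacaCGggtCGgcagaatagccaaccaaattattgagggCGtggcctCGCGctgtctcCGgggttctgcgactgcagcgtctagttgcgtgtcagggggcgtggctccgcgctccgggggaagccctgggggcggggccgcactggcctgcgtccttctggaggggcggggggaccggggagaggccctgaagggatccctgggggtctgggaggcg
The Zfp977 stretch is chr7:42592546-42592795 (minus strand). It holds 6 CpGs, and the 3 measured ones averaged 90.4%, with 97.8%, 100% and 73.4% at 14, 24 and 73 bases from the listed start. The Zfp945 stretch, chr17:22867135-22867384 (minus), holds 5 CpGs and its 3 measured rows averaged 0.629%. Zfp974, chr7:27929459-27929708 (minus), averaged 0.884% over 5 of 13 CpGs. In Zfp933, chr4:147848419-147848668 (minus), all 8 CpGs were measured and averaged 1.26% over 9 rows. In Zfp667, chr7:6286330-6286579 (plus), 9 of 22 CpGs were measured and averaged 0.983% over 10 rows. The letters CG, which read the same on both strands, occurred a median of 15.5 times in the 300 listed bases of the 108 members (3 to 59), and 70.4% of the members held at least 10. Over the 6060 genes with 3 rows and a listed start the median was 20 and the share 78.6%, and over all 17274 protein-coding genes with a listed start 14 and 57.9%.

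At gene ends, here 1 kb either side of both ends of the gene, methylation of Zfp genes was low. Of 85 genes with at least 3 rows there, 67 averaged under 5%, 75 under 20%, 6 between 20% and 80%, and 4 above 80%. The median over genes was 1.65%, beside 2.03% over 4085 genes of all kinds. In percent, 88.2% of Zfp gene ends and 89.4% of all gene ends lay under 20%. Zfp995 (3 rows) and Zfp597 (4 rows) were at 0% in all 15 mice. The next lowest were Zfp426 with 0.257% ± 0.732 (SD, n = 15), Zfp444 with 0.328% ± 0.823, and Zfp365, a gene for a protein of neuronal morphology, with 0.391% ± 0.968.

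**Figure D1:**
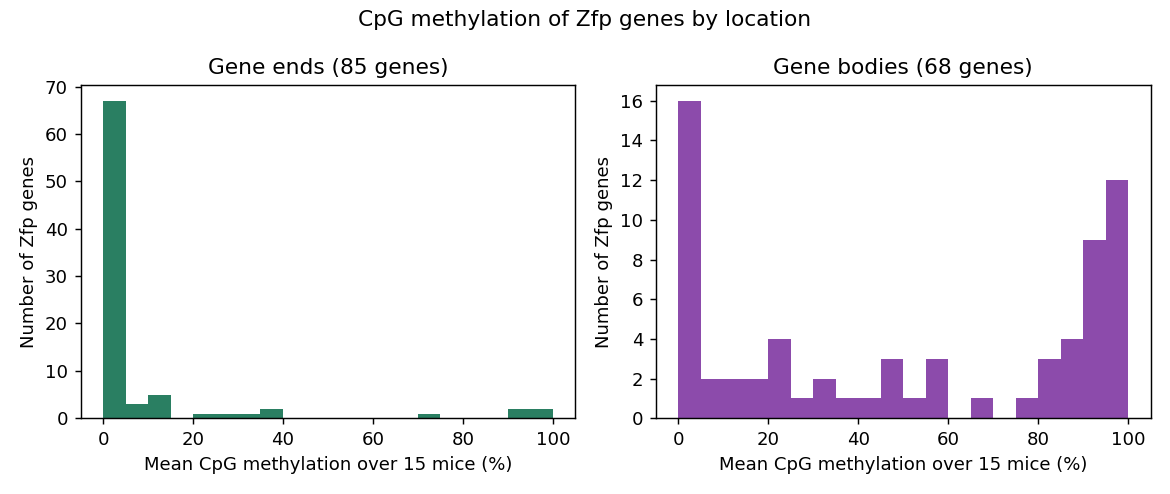
Number of Zfp genes (vertical axis, different scale in each panel) by mean CpG methylation over the 15 mice (horizontal axis, percent, bins of 5 points), at gene ends (left, 85 genes) and in bodies (right, 68 genes). Gene ends fill the lowest bin with 67 genes, while bodies have 16 genes under 5% and 28 above 80%.

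The few Zfp gene ends with high values lay mostly on the far side, away from the start. RefSeq strand separates the sides for the 108 genes with a listed start. On the start side 70 genes had a row, with a median of 1.43%, and 63 of them averaged under 5% and 3 above 20%. Those 3 were Zfp977 (90.4%, 3 rows), Zfp42 (74.1%, 3 rows) and Zfp619 (49.8%, 1 row). On the far side 12 genes had a row, with a median of 47.9%, and 8 of them were above 20%. All genes gave the same order of sides: 1.95% over 3455 genes on the start side, with 7.50% of them above 20%, and 23.7% over 507 genes on the far side, with 52.7% above 20%. The Zfp share above 20% was 4.29% on the start side and 66.7% on the far side. With at least 3 rows on the far side, 9 Zfp genes remained, with a median of 20.4% and 55.6% of them above 20%. Over all genes 311 remained, with a median of 11.5% and 43.1% above 20%.

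Within a gene the sides could be set against each other in 4 cases. Zfp974 had 0.884% over 5 start-side rows and 98.6% over 2 far-side rows. Zfp622, the ribosome assembly gene, had 0.997% over 9 rows and 74.3% over 2. Zfp503, a gene of striatal development also known as Nolz1, had 0.697% over 3 rows and 63.1% over 4. In Zfp174 both sides were low, with 3.34% over 10 rows and 2.20% over 4, but those 4 far-side rows also lie in the body of Zfp597, 183 to 238 bases from a listed start. Thus 3 of the 4 far sides were high while each start side was under 5%.

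Of the 10 gene ends above 20%, 4 had far-side rows only: Zfp217 (95.1% ± 5.21, SD, n = 15), an oncogene homologue, Zfp109 (90.96% ± 7.58), Zfp94 (32.7% ± 2.09) and Zfp423 (20.4% ± 6.93). Zfp423 encodes a partner of EBF factors that acts in cerebellar and fat cell development. All 6 Zfp94 rows lie past the end of the gene: the 2 nearer to it were at 92.3% and 97.8%, and the 4 farther ones between 0% and 5.79%. These 6 rows also count among the 12 body rows of the neighbouring Zfp61, which averaged 16.8%. Zfp503 (36.4% ± 8.49) and Zfp974 (28.8% ± 1.68) had rows on both sides, Zfp977 (90.4% ± 10.1) and Zfp42 (74.1% ± 24.1) on the start side only. Zfp366 (95.2% ± 6.30), known from dendritic cells, and Zfp575 (39.4% ± 10.5) have no listed strand. In Zfp575, 4 rows between positions 24587584 and 24587642 of chromosome 7 averaged 0% to 2.76%. They lay 41 to 99 bases from a start listed for another protein-coding gene, as Zfp575 itself has none listed. The 4 rows between 24588594 and 24588666 averaged 67.2% to 92.6%, so the Zfp575 mean joined a low and a high stretch about 1 kb apart.

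Zfp42, also called Rex1, is a pluripotency gene whose promoter is methylated in many differentiated tissues. Its 3 rows (chromosome 8, 43307408 to 43307475) lie 399, 406 and 466 bases upstream of the listed start. Standard mice 1 to 5 had 80.7%, 0%, 84.6%, 81.0% and 47.1%. Enriched mice had 73.4%, 100%, 72.5%, 67.8% and 72.7%, and withdrawal mice 100%, 84.6%, 78.9%, 83.0% and 85.5%. Standard mouse 2 was at 0% at all 3 rows, and the groups overlapped. The means were 58.7% ± 36.2 (SD, n = 5), 77.3% ± 12.9 and 86.4% ± 8.01. Withdrawal against standard gave a limma adjusted p of 0.936 over all gene ends.

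In bodies, here the inside of a gene more than 1 kb from both ends, the values split. Of 68 Zfp genes with at least 3 body rows, 22 averaged under 20%, 18 between 20% and 80%, and 28 above 80%, with a median of 51.1%. Over 4522 genes of all kinds the median was 52.9%, with 24.8% of bodies under 20%, 47.3% between and 27.9% above 80%. The Zfp shares were 32.4%, 26.5% and 41.2%. The median was 6 rows per body in both sets. Among bodies with 3 to 9 rows, 48.1% of 54 Zfp bodies and 33.2% of 3412 bodies of all genes were above 80%. These shares describe the list, and the difference was not tested.

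The highest Zfp bodies were nearly fully methylated in every mouse. Zfp583 had 99.4% ± 1.26 (SD, n = 15; 3 rows), Zfp942 had 99.2% ± 1.25 and Zfp945 had 98.8% ± 1.49. The body of Zfp583 (chromosome 7, rows 6316666 to 6317435) lies next to Zfp667, whose start side had 1.09% over 14 rows. Zfp945, whose start is printed above, had 0.629% at its gene ends. Zfp978 had the most rows of any member, with 87.1% ± 2.05 over 48 body rows and 5.87% ± 3.14 over 18 rows at its ends. Zfp982, next to it on chromosome 4, had 81.3% ± 2.87 over 33 rows. Zfp800, also among the 5 genes with the most rows, had 1.39% ± 1.23 over 18 rows at its ends and 47.4% ± 8.37 over 7 body rows. Zfp978, Zfp981, Zfp982 and Zfp993 hold 113 rows (9.77% of the Zfp rows) and lie among duplicated genes of 1 family, so reads may be shared between near-identical copies and these values are uncertain. Without these 4 genes 39.1% of 64 Zfp bodies were above 80%.

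Low body rows lay near a listed start more often than high ones did, though most did not. The body of Zfp580 averaged 0.487% ± 0.775 (8 rows), Zfp558 0.521% ± 1.15 (8 rows), Zfp397 0.647% ± 0.951 (9 rows), Zfp503 0.942% ± 2.78 (4 rows), Zfp708 0.948% ± 1.02 (11 rows) and Zfp219 1.37% ± 1.82 (8 rows). Zfp708 encodes a KRAB zinc finger protein that represses a retroelement family. Of the 22 bodies under 20%, 9 had every row within 1 kb of a start that RefSeq lists for a protein-coding gene, Zfp580, Zfp558, Zfp708 and Zfp445 among them. Zfp503 and Zfp219 had 0 rows that near to one. A further 6 belong to genes with no listed start, and the other 7 had a listed start but not all rows near one. By rows, 42.1% of 221 Zfp body rows under 20% and 2.31% of 216 above 80% were within 1 kb of a listed start of a protein-coding gene. Over all genes the shares were 26.3% of 14170 and 0.718% of 13363. The promoter windows used here hold no starts for chromosome 18, so its rows are not in these counts.

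**Figure D2:**
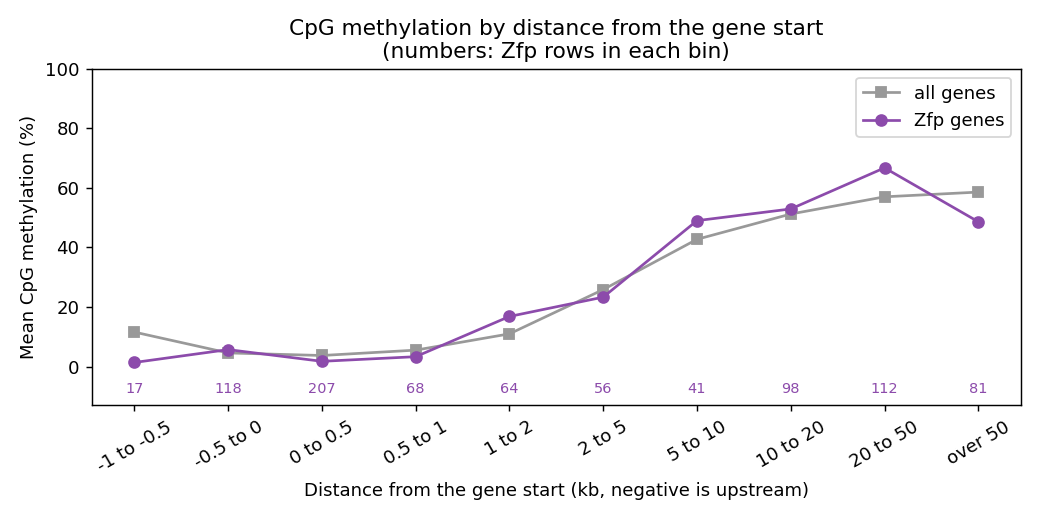
Mean CpG methylation (vertical axis, percent, mean over 15 mice and over rows) by distance from the gene start (horizontal axis, kb, unequal bins) for Zfp genes (circles) and all autosomal protein-coding genes with 3 rows (squares), with the number of Zfp rows under each bin. Zfp values rise from 1.78% in the first 0.5 kb to 66.7% at 20 to 50 kb, and the lowest bin upstream holds 17 rows of 4 genes.

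By distance from the gene start, Zfp rows averaged 1.78% in the first 500 bases (207 rows) and 3.34% in the next 500 (68 rows). They averaged 16.8% from 1 to 2 kb, 23.3% from 2 to 5 kb, 49.0% from 5 to 10 kb, 52.9% from 10 to 20 kb and 66.7% from 20 to 50 kb. Beyond 50 kb the mean was 48.6% over 81 rows of 11 genes. All genes rose along the same bins, with 3.74% in the first 500 bases, 57.0% from 20 to 50 kb and 58.6% beyond. In the bin from 20 to 50 kb, 64.3% of 112 Zfp rows (23 genes) and 44.9% of all rows were above 80%. Rows were pooled over genes, so genes with many rows weigh more. The 33 body rows of Zfp982, in the duplicated region of chromosome 4, reach across this bin. Their weight in it was not tested.

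Only 18 Zfp genes had at least 3 rows both at the ends and in the body. The body was higher in 14 of them and the end in 4, with a median difference of 30.03 points. Among all 1114 such genes the body was higher in 87.8%, with a median of 40.3 points. The difference was over 50 points in 7 Zfp genes: Zfp945 (98.2 points), Zfp69 (92.5), Zfp287 (89.3), Zfp236 (87.3), Zfp444 (81.7), Zfp978 (81.3) and Zfp407 (75.1). In each of these 7 the body was higher in 15 of 15 mice. The ends were higher at Zfp366, Zfp503, Zfp580 and Zfp217, by 54.0, 35.4, 10.6 and 1.10 points taken as end minus body means of 95.2% and 41.2%, 36.4% and 0.942%, 11.1% and 0.487%, and 95.1% and 94.0%. At Zfp366, Zfp503 and Zfp580 no mouse had the body above the ends. These ends are not all gene starts. The end rows of Zfp580 and Zfp217 were on the far side only, and Zfp366 has no listed strand. At Zfp503 the far side had 63.1% and the start side 0.697%. All 8 body rows of Zfp580 lay within 1 kb of a listed start.

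The Zfp genes lie on few chromosomes in large numbers. Chromosome 7 has 90 of the 360 annotated genes and 29 of the 138 described, chromosome 17 has 41 and 14, chromosome 13 has 32 and 11, chromosome 4 has 27 and 12, and chromosome 8 has 25 and 13. Chromosome 1 has 4 annotated Zfp genes and none with 3 rows. On chromosome 7 the 16 gene ends had a median of 6.19% (0.328% to 90.96%) and 5 of the 10 Zfp gene ends above 20%. On chromosome 17 the 10 gene ends ran from 0% to 3.60%, with a median of 1.52%. The sides measured differ between these chromosomes. Zfp580, Zfp109, Zfp94, Zfp710 and Zfp771 on chromosome 7 had far-side end rows only. Those on chromosome 17 with a listed strand had start-side rows only. Apart from Zfp977, chromosome 7 ends with start-side rows only ran from 0.328% to 1.31%. Ends of all genes had medians of 1.99% on chromosome 7 and 2.06% on chromosome 17. Bodies had a median of 84.4% on chromosome 7, where 9 of 16 were above 80% and 4 under 20%, beside 45.5% over the 318 bodies of all genes there. The 4 bodies on chromosome 17 had a median of 96.1% and the 6 on chromosome 13 had 21.95%, from 0.948% at Zfp708 to 90.6% at Zfp458. Chromosome 14 had 2 bodies, Zfp503 and Zfp219, both under 20%.

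**Figure D3:**
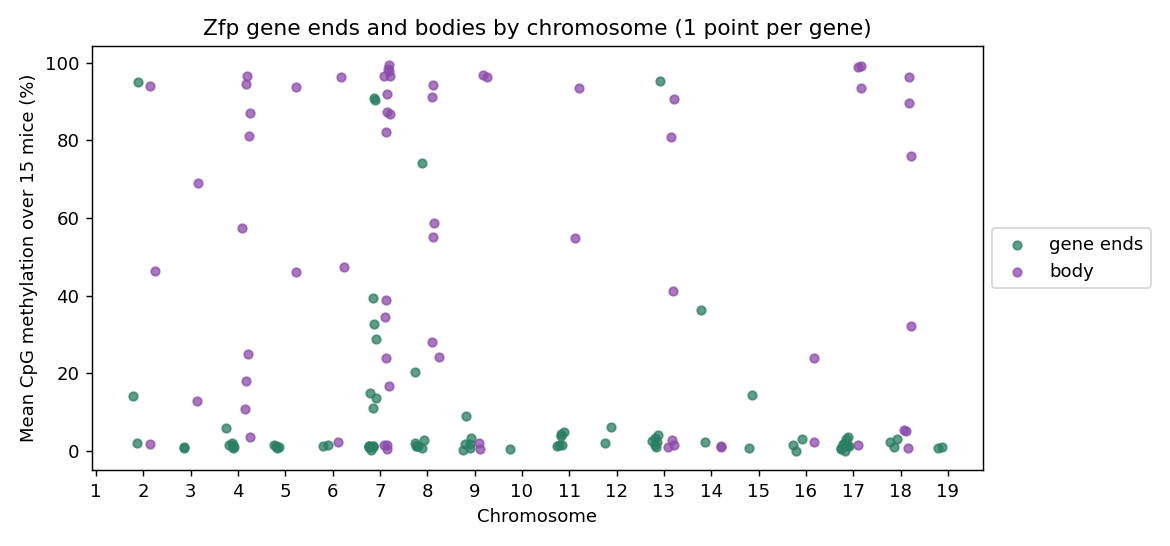
Mean CpG methylation over the 15 mice (vertical axis, percent) of each Zfp gene's ends and body by chromosome (horizontal axis), 1 point per gene and location with at least 3 rows. Gene ends sit near 0% on most chromosomes, and chromosome 7 carries 5 of the 10 ends above 20% and 9 of the 28 bodies above 80%.

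Of the 138 genes, 69 had another Zfp gene within 100 kb (clustered) and 69 had none. Gene ends were low in both, with medians of 1.84% (43 genes) and 1.48% (42 genes). Bodies had a median of 82.1% in 29 clustered genes and 41.2% in 39 single genes. Above 80% lay 17 of the clustered bodies (58.6%) and 11 of the single ones (28.2%), and 3 and 15 were between 20% and 80%. Both kinds had a median of 6 body rows, but the genes differ in length, with a median of 20606 bases for clustered and 29185 for single genes. The part of gene length in this difference was not tested.

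By role, 20 of 34 Zfp genes listed for a known function had 3 rows. Of 7 genes of imprint and retroelement repression, Zfp445 and Zfp708 had values. Zfp445, which helps keep imprinted regions methylated, had 2.17% ± 2.26 (SD, n = 15) over 16 body rows, each within 1 kb of a listed start. Of the developmental list, 8 genes had a body with 3 rows. Zfp536, a repressor of neuronal differentiation, had 34.6% ± 2.40 over 33 rows, Zfp521, a neural differentiation factor, had 32.2% ± 3.58 over 14 rows, and Zfp462 had 18.1% ± 3.57 over 23 rows. Zfp423 had 55.2% ± 12.8 in the body over 5 rows, with a range from 29.6% to 71.6% over mice. Zfp516 had 5.25% ± 1.54 over 11 rows and Zfp407 76.1% ± 5.28 over 8 rows.

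Gene ends of the developmental list were low at Zfp292 (0.754% ± 0.937), Zfp407 (0.938% ± 2.01), Zfp189 (1.48% ± 1.43) and Zfp703 (2.76% ± 3.06), beside Zfp365 above. Zfp335, needed in neural progenitors, had 14.2% ± 12.6 over 4 start-side rows. Zfp189 had 10.7% ± 6.99 in its body and Zfp148, a GC-box binding factor, 23.9% ± 3.92. Zfp91, a ubiquitin ligase gene, had 0.657% ± 1.10 at its ends. Zfp217 was high in the body too, with 94.0% ± 3.81. These genes had 12 ends and 13 bodies, each tested in 3 comparisons. In limma 0 of these tests passed after adjustment and 2 had an unadjusted value under 0.05, beside 4.19% to 6.26% of all gene ends and bodies by comparison: the Zfp217 ends for withdrawal against standard and the Zfp536 body for withdrawal (36.8%) against enriched (32.8%), with limma adjusted p of 0.936 and 0.994.

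Of 19 partners of KRAB zinc finger proteins, 6 had a tested feature. Setdb1 (1.16% ± 1.60), Atf7ip, its cofactor (1.33% ± 0.808), and the histone chaperone gene Daxx (0.982% ± 1.12) were low at their ends. The body of Ehmt2 had 2.24% ± 1.58, that of Dnmt3a, a de novo DNA methyltransferase, 74.9% ± 7.42, and that of X-linked Atrx 50.2%. None of the 6 passed in any comparison. Unadjusted limma values under 0.05 occurred for 1, Daxx, with 0.597% in enriched and 0.368% in withdrawal against 1.98% in standard mice (limma adjusted p 0.865 and 0.936), and for 0 between withdrawal and enriched. Over all gene ends the shares were 5.37%, 4.85% and 5.13%, and over all bodies 6.26%, 5.19% and 4.19%.

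Housing was compared next, which asks whether 6 months of enrichment altered methylation at the Zfp genes and whether a difference remained after withdrawal. Averaged over the 85 gene ends, standard mice had 9.06% ± 0.519 (SD, n = 5), enriched mice 9.51% ± 0.148 and withdrawal mice 9.77% ± 0.397. The level depends on where an end is set: over all 15 mice it was 9.45%, with 2 kb in place of 1 kb 15.9%, and on the start side alone 4.53%. The ranges by group were 8.45% to 9.53%, 9.29% to 9.65% and 9.31% to 10.3%, so the groups overlapped. All genes averaged 8.79%, 8.84% and 8.97% in the same order of groups. Over the 68 bodies the means were 50.8% ± 0.314, 51.1% ± 0.524 and 51.6% ± 0.461, beside 50.8%, 51.0% and 51.4% over all bodies. Body minus end was 41.8, 41.6 and 41.8 points. No p is given for these means because the genes were chosen with earlier results known.

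**Figure D4:**
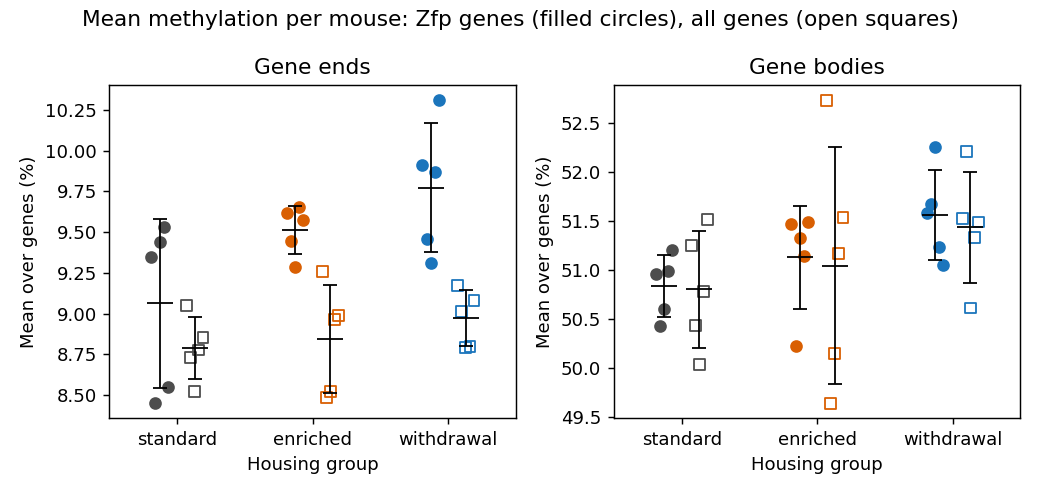
Mean CpG methylation per mouse (vertical axis, percent, not starting at 0) over Zfp gene ends (left) and bodies (right) as filled circles, and over all autosomal genes as open squares, by housing group (horizontal axis, 5 mice each). Horizontal marks and bars are the mean and SD over 5 mice. The ranges of the 3 groups overlap in both panels.

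No Zfp gene or row passed in any comparison. Among 859 Zfp CpG rows with a range of at least 5 points over mice, limma called 0 for enriched against standard, withdrawal against standard and withdrawal against enriched, where 0.0% of 100562 rows were called in each (adjusted p under 0.05). Of the Zfp rows 50, 42 and 50 had an unadjusted p under 0.05 (5.82%, 4.89% and 5.82%), beside 5.15%, 4.42% and 4.3% of all rows. Groups did not overlap at 3, 4 and 6 Zfp rows (0.349%, 0.466% and 0.698%), beside 0.458%, 0.532% and 0.51% of all rows. Of 85 Zfp gene ends 0, 0 and 0 were called, as of all 4207 (0.0%), with 3, 3 and 4 Zfp ends at an unadjusted p under 0.05 (3.53%, 3.53% and 4.71%) beside 5.37%, 4.85% and 5.13%. Of 68 Zfp bodies 0, 0 and 0 were called, beside 0.0427%, 0.0% and 0.0% of 4683. The 0.0427% are 2 bodies of other genes, Srbd1 and Slc5a1, named after their values were seen. With an unadjusted p under 0.05 there were 6, 4 and 6 Zfp bodies (8.82%, 5.88% and 8.82%) beside 6.26%, 5.19% and 4.19%. Leaving out 1 mouse at a time moved the gene end counts to 2 to 7, 3 to 6 and 2 to 6, with the highest of the first 2 without enriched mouse 1 and standard mouse 1. It moved the body counts to 4 to 8, 3 to 6 and 2 to 6, with 2 bodies for withdrawal against enriched without withdrawal mouse 1 or 3. Each pair of comparisons shares a group of mice, so their counts are not independent. The median absolute difference between group means over Zfp bodies was 1.58, 1.42 and 1.52 points, and over all bodies 2.07, 1.87 and 1.803.

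Among gene ends, Zfp410 had the smallest p for both comparisons against standard. It encodes a factor that activates Chd4, a subunit gene of a repressor complex. Over 10 rows (chromosome 12, 84316190 to 84317163), standard mice 1 to 5 had 1.38%, 1.07%, 1.92%, 0.571% and 9.51%. Enriched mice had 9.64%, 12.8%, 4.76%, 6.98% and 6.51%, and withdrawal mice 7.99%, 7.43%, 7.44%, 8.40% and 4.84%. Every enriched and withdrawal mouse lay above 4 standard mice, while standard mouse 5 lay among them. The differences of 5.25 and 4.33 points corresponded, on the scale of the test (log2 of methylated over unmethylated percent, each plus 5 points), to 0.88 ± 0.28 (SE) and 0.78 ± 0.28, with limma adjusted p of 0.865 and 0.936. Without standard mouse 5 they were 6.90 and 5.98 points with limma adjusted p of 0.128 and 0.223. Those were the largest differences on leaving out 1 mouse at a time. The first ran from 4.08 to 6.90 points (limma adjusted p 0.128 to 0.899). The second ran from 3.75 to 5.98 points (limma adjusted p 0.223 to 0.984). At 1 of the rows, 84316264, standard mice averaged 12.0% ± 21.1, enriched 33.3% ± 15.4 and withdrawal 50.3% ± 12.5 (withdrawal against standard, limma adjusted p 0.745).

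At the ends of Zfp870 (chromosome 17, 3 rows) enriched mice had 16.7%, 8.33%, 0%, 3.57% and 0%, and all 10 other mice had 0% (adjusted p by limma 0.865 with standard and 0.827 with withdrawal mice). The difference from standard was 5.71 points, and 2.98 points without enriched mouse 1. Zfp715 had 0.0549% ± 0.123 in standard and 1.497% ± 1.48 in enriched mice over 13 rows (limma adjusted p 0.865). The Zfp977 start, printed above, averaged 97.7% ± 2.76 after withdrawal, 87.7% ± 7.36 in standard and 85.8% ± 13.9 in enriched mice. Withdrawal mice ran from 93.8% to 100% and standard mice from 82.2% to 100%, so they overlapped (limma adjusted p 0.936 against standard, 0.895 against enriched). Withdrawal minus enriched was 12.0 points, and 7.18 points without enriched mouse 5. Zfp217 ends went the other way, with 98.2% ± 2.54 in standard and 90.7% ± 5.76 in withdrawal mice (limma adjusted p 0.936). Zfp946 had 4.42% ± 2.91, 1.57% ± 0.968 and 4.80% ± 2.65 in the 3 groups (withdrawal against enriched, limma adjusted p 0.895).

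Among bodies, Zfp236 had the smallest p of withdrawal against standard. Its 3 rows (chromosome 18, 82673176 to 82673221) had 97.0%, 100%, 90.4%, 100% and 98.9% in standard mice 1 to 5. Enriched mice had 93.1%, 92.2%, 94.9%, 86.9% and 83.3%, and withdrawal mice 81.3%, 89.8%, 92.4%, 70.0% and 75.8%. Of the standard mice, 4 lay above every enriched and withdrawal mouse, and 1 withdrawal mouse, at 92.4%, lay above the lowest standard mouse. The differences from standard were -15.4 points for withdrawal (log2 ratio -1.84 ± 0.40, SE; limma adjusted p 0.371) and -7.15 points for enriched (limma adjusted p 0.730).

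In the body of Zfp367 (chromosome 13, 64152033 to 64152140, 8 rows within 1 kb of a listed start) standard mice had 3.56%, 0.852%, 2.06%, 0.868% and 0%. Enriched mice had 4.38%, 3.15%, 5.14%, 7.95% and 6.06%, and withdrawal mice 1.12%, 2.97%, 0%, 0% and 2.54%. Every enriched mouse lay above every withdrawal mouse, and 1 standard mouse overlapped the enriched range. Enriched exceeded standard by 3.87 points (limma adjusted p 0.584), and withdrawal minus enriched was -4.01 points (limma adjusted p 0.818). Withdrawal mice averaged 1.33% ± 1.39 and standard mice 1.47% ± 1.38.

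Groups did not overlap in 0 Zfp gene ends in each comparison, beside 0.547%, 0.618% and 0.903% of all gene ends. They did not overlap in 0, 2 and 1 Zfp bodies, beside 0.833%, 1.2% and 0.683% of all bodies. The 3 were Zfp367 for withdrawal against enriched, and Zfp810 and Zfp951 for withdrawal against standard. Zfp810 had 99.0% ± 1.41 in standard (97.1% to 100%) and 92.6% ± 4.18 in withdrawal mice (85.9% to 97.1%; limma adjusted p 0.662), so the ranges met within rounding. In Zfp951 the standard mice averaged 88.0% ± 7.27 (78.6% to 93.9%) and the withdrawal mice 97.3% ± 2.47 (94.7% to 100%; limma adjusted p 0.929), with 95.8% ± 5.56 in the enriched group. Zfp458 averaged 94.0% ± 2.52 with enrichment and 86.3% ± 4.74 in standard mice (limma adjusted p 0.683), and 91.4% ± 3.94 after withdrawal. Zfp936 averaged 91.8% ± 2.85 after withdrawal and 83.3% ± 9.07 with enrichment (limma adjusted p 0.994). That difference of 8.53 points was 4.92 points without enriched mouse 4, which had 68.9%.

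**Figure D5:**
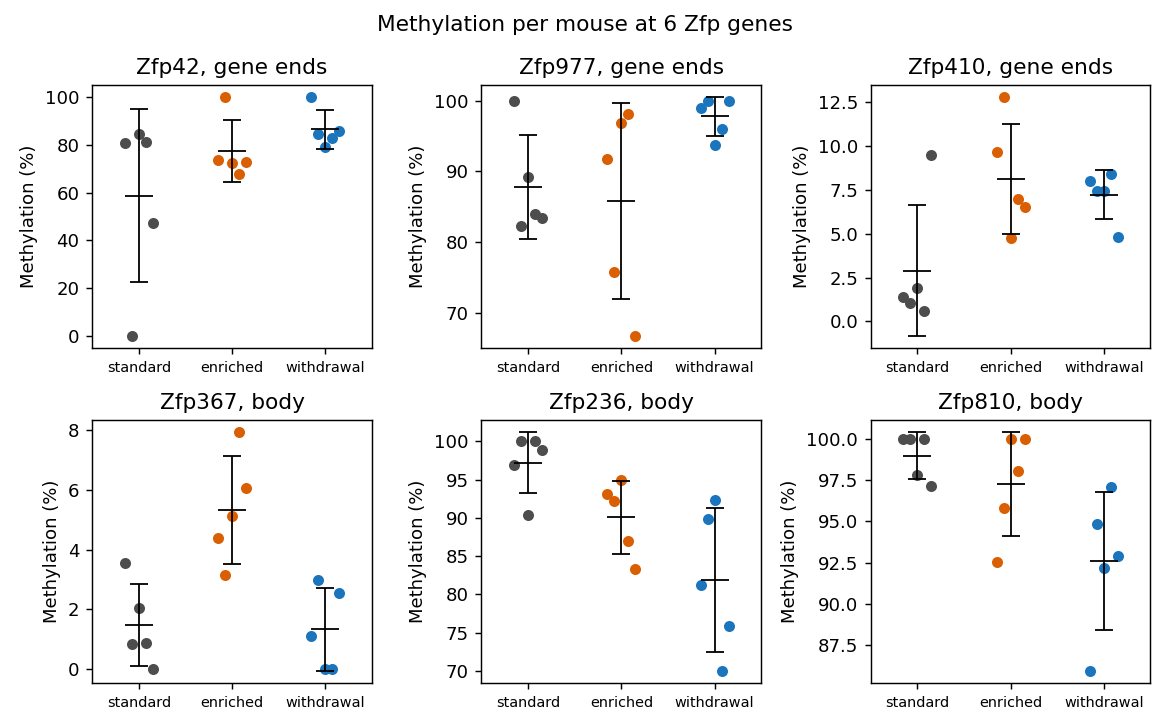
CpG methylation per mouse (vertical axis, percent, a different scale in each panel and not always from 0) by housing group (5 mice each) at 6 Zfp genes: the ends of Zfp42, Zfp977 and Zfp410 and the bodies of Zfp367, Zfp236 and Zfp810, with the mean and SD over 5 mice. Standard mouse 2 is at 0% at Zfp42, and standard mouse 5 is at 9.51% at Zfp410, apart from the other 4 standard mice.

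At single rows the smallest p-values besides that of Zfp410 were spread over 3 genes. At 147124842 of chromosome 4, at an end of Zfp978, enriched mice averaged 21.8% ± 12.8 and standard mice 1.79% ± 3.99 (limma adjusted p 0.666). At 147351776, inside Zfp978, all standard mice were at 100% and withdrawal mice had 92.4% ± 3.32, from 87.0% to 95.5% (limma adjusted p 0.758). Both rows fall in the duplicated region of chromosome 4. At 54988001 of chromosome 18, inside Zfp608, enriched mice averaged 15.3% ± 11.2, standard mice 0.627% ± 0.862 and withdrawal mice 0.417% ± 0.932 (limma adjusted p 0.666 and 0.881 for enriched against standard and withdrawal against enriched). At 3847582 of chromosome 16, on the start side of Zfp174, enriched mice averaged 15.6% ± 9.39 and withdrawal mice 1.86% ± 4.15 (limma adjusted p 0.976).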

How the data were processed

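RRBS libraries were made from dentate gyrus DNA of 15 mice, per the labels' protocols. Trim Galore 0.4.0, cutadapt 1.8.1, Bismark 0.16.1, methylKit 1.5.2 and build mm10 are named in the submitters' processing notes, without role or order. The authors deposited percent methylation per cytosine and strand, 1 column per mouse, per the file headers. Coverage minimum and filters are not given in the sources used here. Rows before the chromosome column restarts were taken as CpG. Of these, 46851 lay in RefSeq GRCm38.p6 promoter windows, and 100% fell on a CG on the stated strand. Mice were grouped by title, and their numbers were not used as pairs.

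Rows with values in all 15 mice were assigned to protein-coding genes, and a gene end or body needed at least 3 rows. Percentages became log2((percent + 5)/(100 - percent + 5)). limma 3.58.1 (R 4.3.3) fitted 3 group means to all mice, two-sided, with variance following the mean, over all rows with a range of at least 5 points, all gene ends and all bodies outside Y and the mitochondrial genome. Benjamini-Hochberg adjustment covered each whole family, with calls at adjusted p under 0.05. The fits were tried on simulated data, with changes planted only in features averaging 20% to 80%. That trial therefore does not cover changes at gene ends or bodies outside this range. Nothing in the labels names litters or cages shared by mice.

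Members and lists were chosen with earlier results of these data known. Genes named were those with the highest and lowest ends (10 and 5) and bodies (3 highest and 6 lowest), the 3 smallest p per comparison and location, the 2 smallest row p, the 5 with most rows, and listed roles, partners and cell type markers. Alternatives changed the offset, scale, variance trend, range and row minimum, gene end distance and completeness, used the start side alone, added a replicate block and left out each mouse. Bodies split by row number or without 4 chromosome 4 genes were added after seeing the data. A planned count of zinc fingers in proteins was not run, as protein sequences were not used here.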

Additional observations from a re-analysis of the deposited data

Results flagged for a closer look

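In 42 groups of 5 mice, 4 had 1 mouse far from the rest, by the gap to its neighbour over the range. Chance flags about 1 in 20 such groups where values are normally distributed and not tied. These percentages can tie at 0%, and the genes checked were those named for small p, so that rate need not hold here. Enriched mouse 2 had the lowest mean over Zfp bodies, 50.2%, where the other enriched mice had 51.1% to 51.5%. At the ends of Zfp410, standard mouse 5 was at 9.51%, where the other standard mice had 0.571% to 1.92%, and withdrawal mouse 5 was at 4.84%, where the others had 7.43% to 8.40%. At the ends of Zfp715, standard mouse 5 was at 0.275% and the other 4 standard mice were at 0%.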

How the results depend on the processing

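No Zfp row, gene end or body was called under any alternative run. The 24 named differences kept their direction in all 512 recomputed values, and 0 passed. These are differences of group means in percent. Changing the offset, scale, variance trend or block, or leaving out a mouse of the group not compared, could not alter them. The 24 were also picked for small p in these same data, so the kept direction is no support for them. Over all features, called CpG rows were 3, 2 and 1 with an offset of 1 point (enriched against standard, withdrawal against standard, withdrawal against enriched), and 4 and 3 without the range filter in the latter 2 comparisons, in place of 0. Leaving out 1 mouse gave 0 to 7, 0 to 11 and 0 to 6 rows, 0 to 2, 0 to 1 and 0 to 1 gene ends, and 0 to 2, 0 to 1 and 0 to 0 bodies. Most rows were called without standard mouse 5 (7) in the first comparison and without withdrawal mouse 3 (11 and 6) in the others. The cause was not tested.

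With the replicate block, 0 bodies were called for enriched against standard in place of 2, as without the variance trend (0) and with a range of at least 5 points (0). The block changed no other count of calls. Deviations of same-numbered mice from their group means correlated at -0.0177 to 0.0192, and those of differently numbered mice at -0.0227 to 0.0266. Whether same-numbered mice shared a litter, cage or batch was not tested.

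The mean over Zfp gene ends was 9.45%, over bodies 51.2%, and body minus end 41.7 points. Means over rows gave 7.71%, 47.1% and 39.4 points, and 2 kb in place of 1 kb gave 15.9%, 51.8% and 35.9 points. The start side alone gave 4.53% and 46.6 points. Rows reached by only 1 gene gave 53.2% in bodies and 43.6 points, and keeping rows measured in 3 or more mice per group gave 51.9% in bodies. Without 1 mouse the values were 9.39% to 9.52%, 51.1% to 51.2% and 41.6 to 41.8 points. No read counts came with the percentages, so what depth limits could not be measured.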
